A study of Mus musculus with 10 samples.

Results

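The genes described here are 53 genes of DNA replication and nucleotide synthesis, chosen by name: origin recognition and licensing factors, the replicative helicase, the sliding clamp and its loader, polymerases, enzymes of deoxynucleotide supply, fork protection proteins and factors that rebuild chromatin behind the fork. The choice was made with earlier results of these data known, so it is not independent of the values below. Of these, 51 are among the 22329 genes of the table, all 51 passed the filter on low values, and Cdt1 and Gins2 were not analysed here. Messenger RNA was measured in 10 tumours of B16F10, a mouse melanoma cell line, grown under the skin of C57BL6/J mice. Each tumour was injected once with 80 µg of mRNA in all and taken 7 days later. The control mRNA of libraries 1 to 5 encoded luciferase. Libraries 6 to 10 come from tumours given 20 µg each of 4 mRNAs, for single-chain mouse IL-12, mouse IL-15sushi, mouse GM-CSF and mouse IFNalpha. The labels give no age and no batch, and no tumour without injected mRNA is among the samples. Values are TPM (a transcript's share of its library, corrected for transcript length), so levels can be set beside each other between genes, and the sequencing depth is unknown.

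A cell copies its DNA once per division. The origin recognition complex marks start sites, CDC6 and CDT1 load the ring of MCM2 to MCM7 on them in G1, and CDC45 and GINS turn the ring into a moving helicase at the start of S phase. Polymerases, the PCNA clamp and the RFC clamp loader then copy both strands, while ribonucleotide reductase, thymidylate synthase and thymidine kinase supply the deoxynucleotides. Many of these genes are transcribed by E2F factors as cells enter S phase, so their transcripts are abundant in dividing tumour cells and in lymphocytes that divide after activation.

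Some libraries stood apart, which bears on every result below. Melanocyte markers summed to 44.2 TPM in cytokine library 7 and 2699 TPM in control library 1, against 4589 to 19190 TPM in the others, with Slc45a2 at 0 in library 7, so the defining markers of the labelled melanoma were nearly missing there. None of the 10 melanocyte markers passed the test, and their median log2 change was -1.86. T cell markers summed to 3.83 to 50.6 TPM in control tumours, to 281 to 3750.0 TPM in libraries 6 to 9 and to 65.9 TPM in library 10. Macrophage and monocyte markers summed to 131 to 462 TPM in control tumours, 2564 to 7002 TPM in libraries 6 to 9 and 632 TPM in library 10. No T cell or macrophage marker was lower in the cytokine mRNA group: 7 of 8 and 8 of 10 tested rose. Of the other lists, 3 of 4 neutrophil markers rose, and none of 2 B cell, 7 endothelial, 6 fibroblast, 5 muscle and 3 erythroid markers passed. Over all genes tested, 7.41% rose and 3.02% fell. No keratinocyte marker passed the filter, and Krt14 and Krt1 were at 0 in all control tumours. In such bulk tumours fewer cells of a type and less RNA per cell cannot be told apart.

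The replication genes were lower in the cytokine mRNA tumours. At a limma adjusted p under 0.05, 18 of 51 fell (35.3%), against 3.02% of all 12497 genes tested, and 0 of 51 rose, against 7.41% of all genes; no replication gene had a positive log2 change. Their median log2 change, on the log2(TPM + 1) scale, was -1.10, beside -0.18 for all genes tested. Both medians shifted with the scaling: after median-ratio scaling they were -0.94 and -0.03, and with the 50 most abundant genes removed before rescaling -1.20 and -0.27. A change of at least 2-fold lower was estimated for 30 of the 51, a count that was not made over all genes. The split of calls over all genes, 378 lower and 926 higher, became 596 lower and 878 higher under that rescaling. At the level of single tumours, 6 of 51 genes (11.8%) were lower in all 5 cytokine mRNA tumours than in any control tumour, against 3.78% of all genes: Gins3, Rfc2, Rfc3, Tk1, Timeless and Chaf1a. None was higher in all 5, against 5.45% of all genes.

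**Figure D1:**
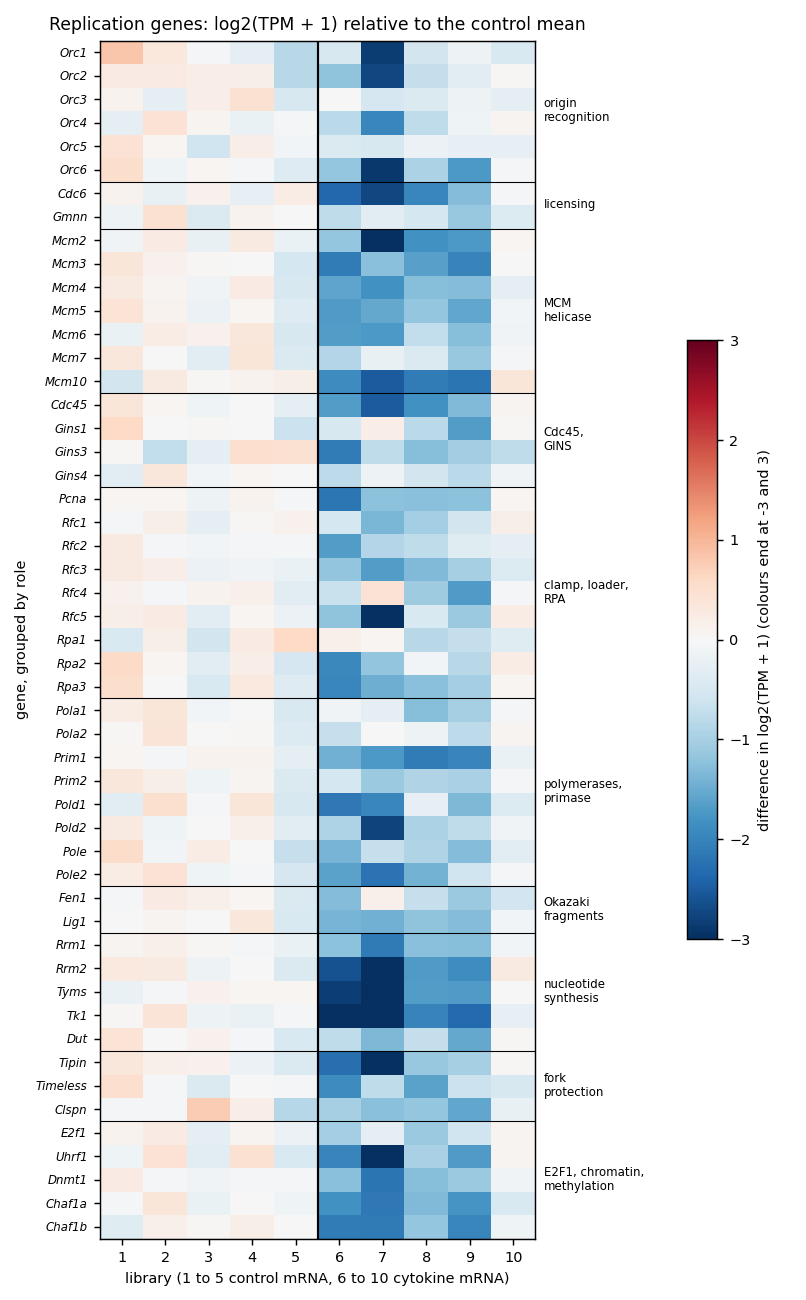
Difference of log2(TPM + 1) from the mean of the 5 control tumours, for 51 replication genes (rows, grouped by role) in 10 libraries (columns); blue is lower, red higher. Libraries 6 to 9 are blue in nearly every row, with medians of -1.29, -1.53, -1.11 and -1.15, while library 10 has a median of -0.07 and lies in the control range for 42 of the 51 genes.

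The cytokine mRNA tumours were not alike. Taking the median over the 51 genes, libraries 6, 7, 8 and 9 stood at 40.8, 34.6, 46.3 and 45.2% of the control mean, and library 10 at 95.5%. Libraries 6 to 9 had 45, 41, 44 and 46 genes below every control tumour, and library 10 had 7. Control libraries 1 to 5 had 5, 1, 13, 2 and 30 genes below every other control tumour. These counts by library were not made over all genes. Without library 10, 35 of 51 genes were called lower (68.6%, against 12.8% of all genes), all 18 of the genes above among them, and 35 were lower in libraries 6 to 9 than in any control tumour (13.4% of all genes). Leaving out any other single library lowered the count. Without control libraries 1 to 5 in turn, 6, 1, 5, 2 and 5 genes were called, against 1.14, 0.640, 0.808, 0.680 and 0.768% of all genes. Without cytokine libraries 6 to 9 in turn, 0, 8, 1 and 2 were called, against 0.368, 1.66, 0.752 and 1.09% of all genes; without library 6, 35 had an unadjusted p under 0.05. With neither library 6 nor library 7, 0 genes were called, against 0.00800% of all genes. The median log2 change was then -0.80, beside -0.03 for all genes, and 33 of the 51 had an unadjusted p under 0.05. All these shares of all genes are at the adjusted threshold. The unadjusted counts without library 6, and without libraries 6 and 7, have no count over all genes beside them. They cannot be set against all genes. With all 10 libraries, an unadjusted p under 0.05 (limma) was found in 37 of the 51 and in 3813 of all 12497 genes, in either direction. With no filter on low values 6 genes were called, against 0.971% of all genes, and with libraries weighted by their quality 42, against 9.41%. Library 7 had the lowest quality weight of the 10, 0.187, and library 2 the highest, 2.59. In library 7 the genes also scattered: the SD over genes of the difference from the control mean was 1.17 on the log2 scale, against 0.181 to 0.302 in control tumours, 0.766 in library 6 and 0.230 to 0.549 in libraries 8 to 10. There the difference was -4.01 for Mcm2 and 0.43 for Rfc4.

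**Figure D2:**
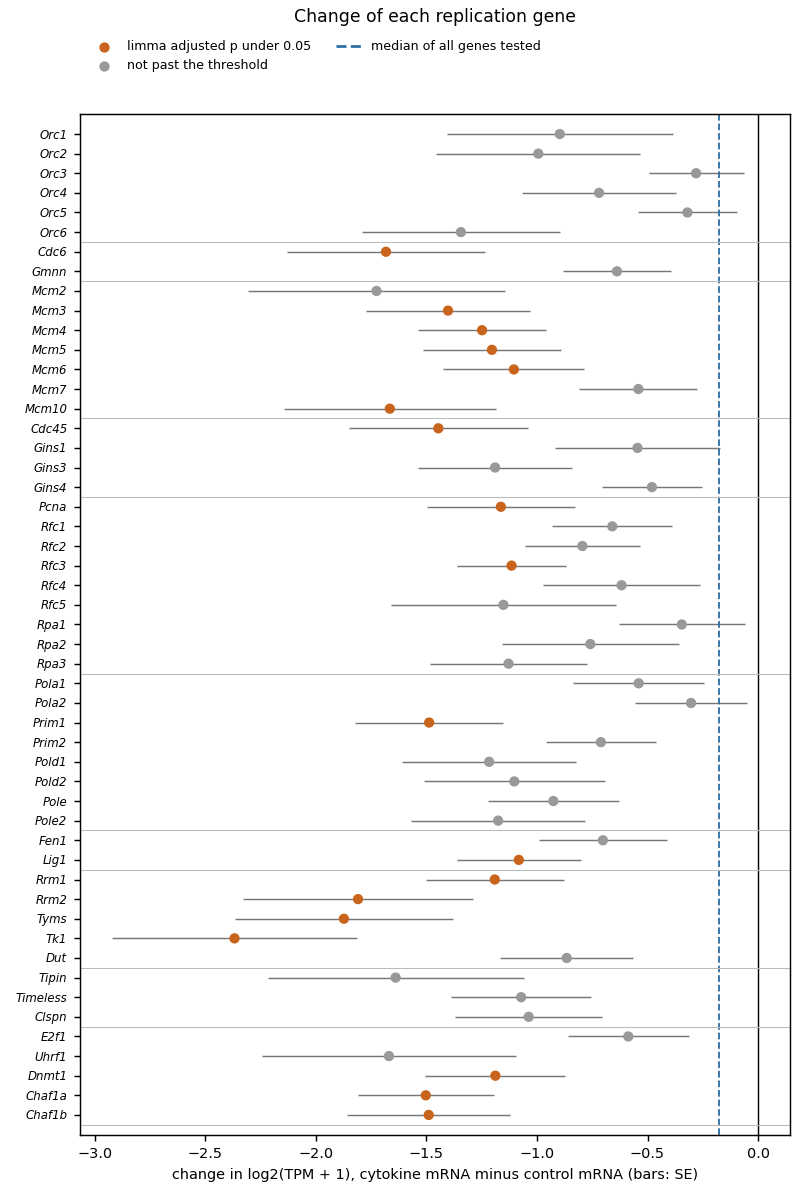
Change in log2(TPM + 1), cytokine mRNA minus control mRNA, of each of 51 replication genes, with bars of 1 SE from limma over 10 libraries; orange points passed the threshold and the dashed line is the median of all genes tested (-0.18). All 51 points lie below 0, from -2.37 in Tk1 to -0.28 in Orc3.

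Promoters were searched for the E2F site, since many of these genes are known E2F targets. The search used TTTCCCGC, TTTCGCGC, TTTGGCGC and TTTGCCGC on both strands, in RefSeq promoters of build GRCm38.p6 that run from 250 bases before to 50 after the transcript start. Of 51 genes, 43 had an entry, and 16 of these held a match (37.2%), against 2.27% of all 32851 promoters and 4.67% of the tested genes with an entry. A match was present in 7 of 17 genes that fell and in 9 of 26 that did not pass, which is 41.2% and 34.6%, a difference that was not tested. A match is a description of the letters, not of binding. The 250 bases before the start are printed for 3 genes that fell and hold a match there, and for Tk1, which fell most and holds none, with matches in capitals:
Cdc6 (chr11:98907901-98908150, plus strand): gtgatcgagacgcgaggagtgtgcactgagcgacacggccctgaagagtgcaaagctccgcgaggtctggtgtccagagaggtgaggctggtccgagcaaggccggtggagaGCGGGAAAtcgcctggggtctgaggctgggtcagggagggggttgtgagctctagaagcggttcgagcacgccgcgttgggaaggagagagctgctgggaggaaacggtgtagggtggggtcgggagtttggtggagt
Mcm6 (chr1:128359706-128359955, minus strand): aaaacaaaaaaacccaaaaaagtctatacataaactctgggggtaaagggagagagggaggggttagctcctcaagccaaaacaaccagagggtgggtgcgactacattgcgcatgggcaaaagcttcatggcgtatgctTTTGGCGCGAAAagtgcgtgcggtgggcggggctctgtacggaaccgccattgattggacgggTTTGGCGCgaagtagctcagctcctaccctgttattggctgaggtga
Rfc3 (chr5:151651209-151651458, minus strand): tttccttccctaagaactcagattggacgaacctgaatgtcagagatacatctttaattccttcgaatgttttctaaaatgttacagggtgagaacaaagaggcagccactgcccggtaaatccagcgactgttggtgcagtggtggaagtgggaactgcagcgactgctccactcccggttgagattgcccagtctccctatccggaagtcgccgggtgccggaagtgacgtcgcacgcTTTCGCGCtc
Tk1 (chr11:117826015-117826264, minus strand): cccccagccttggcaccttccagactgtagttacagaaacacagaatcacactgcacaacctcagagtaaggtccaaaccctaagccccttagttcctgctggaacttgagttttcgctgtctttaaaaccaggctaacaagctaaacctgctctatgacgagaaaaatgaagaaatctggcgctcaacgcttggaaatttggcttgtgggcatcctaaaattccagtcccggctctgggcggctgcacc
The match begins 138 bases before the start in Cdc6 and 10 bases before it in Rfc3, which holds another just after the start. In Mcm6 a match that begins 110 bases before the start overlaps a reverse-strand one, and another lies 47 bases before it.

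For each role below, the share of all genes called lower with all 10 libraries is the same 3.02%. None of the 6 origin recognition genes passed the test, which is near that share. Orc2, the most abundant of them and a core subunit of the complex, was at 132, 132, 128, 126 and 62.3 TPM in control libraries 1 to 5 and 47.8, 15.9, 68.0, 87.5 and 114 TPM in cytokine libraries 6 to 10. Control library 5 was low and was exceeded by libraries 8, 9 and 10, so the groups overlapped, while all 5 cytokine mRNA tumours lay below the other 4 controls. The log2 change was -0.99 ± 0.46 (SE; limma adjusted p = 0.169). Orc6, the subunit outside the core ring, had the largest change, -1.34 ± 0.45 (SE; limma adjusted p = 0.0749). It was the only one of the 6 called without library 10, at -1.67 (adjusted p = 0.0113), against 12.8% of all genes called lower in that fit. The remaining 4, Orc1, Orc3, Orc4 and Orc5, had changes from -0.90 in Orc1, the subunit that recruits the others to chromatin in each cycle, to -0.28 in Orc3.

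Cdc6, which loads the MCM ring onto origins, fell. Its values were 15.4, 12.1, 15.7, 11.9 and 16.7 TPM in control tumours and 1.96, 1.29, 2.91, 5.20 and 13.6 TPM in cytokine mRNA tumours. Libraries 6 to 9 lay below all controls, and library 10 lay among them. The change was -1.68 ± 0.45 (SE; limma adjusted p = 0.0373); the call was kept only without library 10, where it was -2.09 (adjusted p = 0.00140), among 10 fits with 1 library left out. Gmnn, the inhibitor that blocks CDT1 from relicensing origins, was at 21.0 ± 5.06 and 13.2 ± 2.99 TPM (SD, n = 5 per group) and did not pass (limma adjusted p = 0.109).

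Of the MCM genes 5 of 7 fell: Mcm3, Mcm4, Mcm5 and Mcm6, 4 subunits of the helicase ring, and Mcm10, an initiation factor outside the ring. Mcm10 was at 23.4, 42.5, 35.7, 37.5 and 39.4 TPM in control tumours and 8.67, 5.34, 7.48, 6.87 and 45.2 TPM in cytokine mRNA tumours. Libraries 6 to 9 were far below them, and library 10 exceeded every control tumour. The log2 change was -1.67 ± 0.48 (SE; limma adjusted p = 0.0480). Mcm3 was at 153, 131, 122, 119.6 and 81.9 TPM in control and 27.1, 49.3, 37.6, 28.8 and 118 TPM in cytokine mRNA tumours, a change of -1.40 ± 0.37 (SE; limma adjusted p = 0.0361). Mcm4 was at 71.4, 62.5, 54.8, 69.8 and 42.3 TPM and 19.2, 16.2, 23.8, 23.4 and 48.3 TPM, a change of -1.25 ± 0.29 (SE; limma adjusted p = 0.0240). For both, libraries 6 to 9 lay under all controls and library 10 within their range. Mcm5 and Mcm6 had changes of -1.20 and -1.10. The call of Mcm4 was kept in 5 of 10 fits with 1 library left out, and those of Mcm3, Mcm5, Mcm6 and Mcm10 only in the fit without library 10, with changes there from -1.35 in Mcm6 to -2.17 in Mcm10.

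The other ring subunits, Mcm2 and Mcm7, did not pass. Mcm2 had the largest change of the family and a wide error, -1.73 ± 0.58 (SE; limma adjusted p = 0.0768), with 6.01 TPM in library 7 and 116 TPM in library 10. Mcm7 had -0.54 ± 0.27 (SE; limma adjusted p = 0.190) and was at 41.8 TPM in library 7, inside the control range of 36.3 to 63.6 TPM. The 6 subunits form 1 ring in equal numbers, but their transcripts were unequal in both groups. Control means ran from 50.2 TPM in Mcm7 to 139 TPM in Mcm6, and values in library 7 from 6.01 TPM in Mcm2 to 49.3 TPM in Mcm3.

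Among the helicase activators, Cdc45 fell and none of 3 GINS genes passed. Cdc45 was at 45.8, 36.8, 32.5, 35.6 and 28.5 TPM in control tumours and at 10.4, 5.47, 9.38, 13.4 and 37.7 TPM in cytokine mRNA tumours, with only library 10 inside the control range. Its change was -1.45 ± 0.40 (SE; limma adjusted p = 0.0442), and the call was kept only without library 10, at -1.83 (adjusted p = 0.00125). Gins3 was lower in all 5 cytokine mRNA tumours, at 1.42 to 5.19 TPM, than in the control tumours, at 5.22 to 13.8 TPM, and missed the threshold narrowly (-1.19 ± 0.35 SE, limma adjusted p = 0.0519). The lowest control and the highest cytokine mRNA value of Gins3 were close. Gins1 and Gins4 had changes of -0.55 and -0.48.

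Pcna and Rfc3 fell among the 9 genes of the clamp, its loader and the single-strand binding protein RPA. Pcna, the sliding clamp that holds polymerases on DNA, was at 198, 198, 170.3, 203 and 184 TPM in control and 41.5, 80.1, 79.0, 80.7 and 199 TPM in cytokine mRNA tumours. Its controls were tight, libraries 6 to 9 lay well below them, and library 10 was among them. The change was -1.16 ± 0.33 (SE; limma adjusted p = 0.0476), and its call was kept only without library 10, at -1.47 (adjusted p = 0.00170). The table also lists the copy Pcna-ps2, whose reads the counting could share with Pcna. Rfc3, a clamp loader subunit, was at 104, 98.8, 76.1, 80.0 and 74.8 TPM in control and 37.1, 26.1, 34.0, 42.8 and 64.8 TPM in cytokine mRNA tumours, so the groups did not overlap. Its change was -1.12 ± 0.24 (SE; limma adjusted p = 0.0201), a call kept in 7 of 10 fits with 1 library left out and lost without control library 2 or cytokine library 6 or 8, where its adjusted p was 0.0537, 0.0559 and 0.0542.

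The other clamp loader genes had changes from -1.15 in Rfc5 to -0.62 in Rfc4, and their adjusted p ran from 0.0724 in Rfc2 to 0.251 in Rfc4. Rfc2 did not overlap between groups, at 89.4 to 116 TPM in control and 29.0 to 77.9 TPM in cytokine mRNA tumours. Rfc4 reached 79.3 TPM in library 7, above all controls, while Rfc5 was at 5.36 TPM there. Among the RPA subunits, Rpa1, the large DNA-binding one, had a change of -0.35 ± 0.29 (SE; limma adjusted p = 0.418), Rpa2 -0.76 ± 0.40 (SE; limma adjusted p = 0.217) and Rpa3 -1.13 ± 0.36 (SE; limma adjusted p = 0.0654). Rpa1 was the most abundant of the 9, at 207 ± 68.4 and 162 ± 48.9 TPM (SD, n = 5 per group), and the differences between the subunits were not tested.

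Prim1 was the only one of 8 polymerase and primase genes to fall. It encodes the catalytic subunit of the primase that starts each new strand, and was at 52.0, 48.9, 53.8, 54.0 and 41.4 TPM in control and 17.8, 14.4, 10.9, 11.8 and 43.5 TPM in cytokine mRNA tumours. Library 10 was inside the control range and the other 4 were far below it. The change was -1.49 ± 0.33 (SE; limma adjusted p = 0.0212), kept in 5 of 10 fits with 1 library left out. Prim2, the regulatory primase subunit, had -0.71 ± 0.25 (SE; limma adjusted p = 0.0859). Of the polymerase alpha subunits that extend the primer, Pola1 had a change of -0.54 and Pola2 of -0.30. Changes of the strand-copying polymerases were -1.22 in Pold1 and -1.10 in Pold2 of polymerase delta, and -0.93 in Pole and -1.18 in Pole2 of polymerase epsilon, with adjusted p from 0.0674 to 0.0990. Without library 10, 6 of the 8 were called, all but Pola1 and Pola2, against 12.8% of all genes called lower in that fit.

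Lig1, the ligase that seals Okazaki fragments on the lagging strand, fell. It was at 76.6, 80.3, 75.9, 95.4 and 54.7 TPM in control and 28.1, 27.1, 32.3, 30.0 and 71.2 TPM in cytokine mRNA tumours, where libraries 6 to 9 lay close together and library 10 within the control range. The change was -1.08 ± 0.28 (SE; limma adjusted p = 0.0346), kept in 2 of 10 fits with 1 library left out. Fen1, the nuclease that trims the fragments before ligation, was at 20.0 ± 3.48 and 12.6 ± 5.78 TPM (SD, n = 5 per group) and did not pass (-0.70 ± 0.29 SE, limma adjusted p = 0.131). Its 22.1 TPM in library 7 lay within the control range.

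Enzymes of deoxynucleotide supply held the largest falls, with 4 of 5 past the threshold and a median log2 change of -1.81. Tk1, the S phase thymidine kinase, was at 131, 167, 114, 111 and 123 TPM in control tumours and 8.20, 10.7, 30.9, 24.5 and 108 TPM in cytokine mRNA tumours. The groups did not overlap, though library 10 came within a few TPM of the lowest control. Its change was -2.37 ± 0.55 (SE; limma adjusted p = 0.0244), kept in 4 of 10 fits with 1 library left out, and -2.90 (adjusted p = 0.000728) without library 10. Tyms, thymidylate synthase, was at 81.3, 90.5, 102, 96.2 and 96.5 TPM in control and 12.3, 9.39, 28.4, 28.0 and 93.6 TPM in cytokine mRNA tumours. Libraries 6 and 7 were lowest, as for Tk1, and library 10 was inside the control range. The change in Tyms was -1.87 ± 0.49 (SE; limma adjusted p = 0.0359).

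Rrm2, the small subunit that sets ribonucleotide reductase activity in S phase, was at 178, 175, 131, 146 and 107 TPM in control and 22.7, 15.7, 44.1, 38.9 and 175 TPM in cytokine mRNA tumours. Its change was -1.81 ± 0.52 (SE; limma adjusted p = 0.0480), beside -1.19 ± 0.31 (SE; limma adjusted p = 0.0359) for Rrm1, the large subunit. Calls of Tyms and Rrm2 were kept only without library 10, with changes of -2.34 and -2.33, and that of Rrm1 in 2 of 10 fits. Dut, which removes dUTP, had a change of -0.87 ± 0.30 (SE; limma adjusted p = 0.0835). A gene of the opposite action, Samhd1, an interferon-inducible enzyme that breaks down deoxynucleotides, rose. It was at 69.7, 52.6, 55.8, 51.3 and 23.3 TPM in control and 445, 1100.1, 385, 289 and 89.9 TPM in cytokine mRNA tumours, higher in all 5 than in any control tumour, though library 10 was near the highest control. The change was 2.83 ± 0.55 (SE; limma adjusted p = 0.0149), kept in 10 of 10 fits with 1 library left out; without libraries 6 and 7 together it was 2.15 (adjusted p = 0.0735). Samhd1 is also expressed in myeloid cells, whose markers were highest in library 7, as Samhd1 was; the part of these cells in the rise was not tested.

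**Figure D3:**
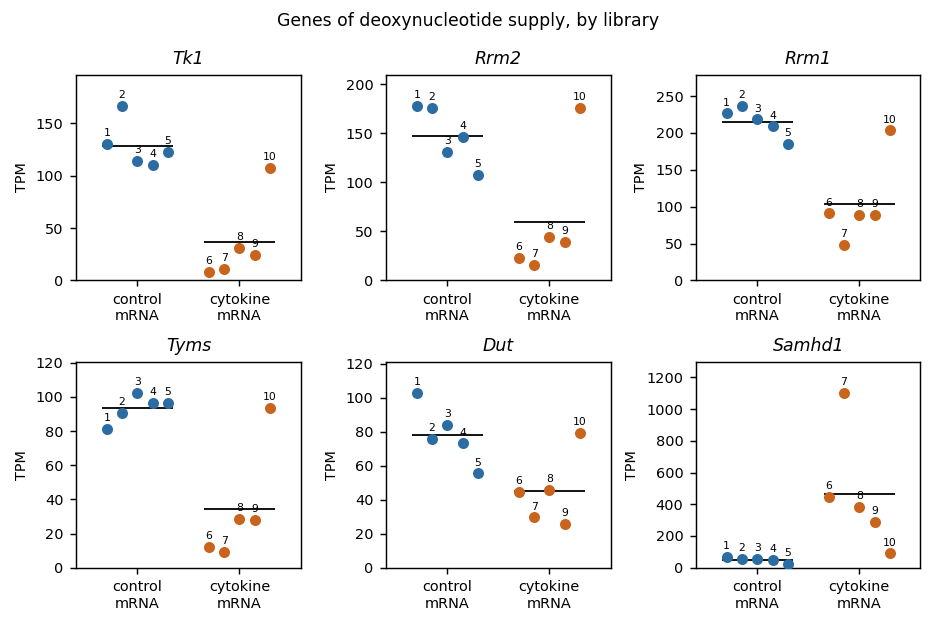
TPM of 5 genes of deoxynucleotide synthesis and of Samhd1, which breaks deoxynucleotides down, in 5 control mRNA (blue) and 5 cytokine mRNA tumours (orange), each point labelled with its library and lines at group means. Library 10 lies at or near the control values in every panel, and Samhd1 runs opposite to the other 5 genes, up to 1100.1 TPM in library 7.

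None of 3 fork protection genes passed, which is near the 3.02% of all genes called lower. All 3 passed without library 10, against 12.8% of all genes called lower in that fit. Tipin, which acts with Timeless in fork protection, was at 153, 133, 131, 107 and 88.3 TPM in control and 24.1, 7.62, 54.5, 59.6 and 123 TPM in cytokine mRNA tumours, a change of -1.64 ± 0.58 (SE; limma adjusted p = 0.0867). Library 7 was lowest and library 10 was inside the control range. Timeless did not overlap between groups, at 17.7 to 34.7 TPM in control and 5.84 to 17.0 TPM in cytokine mRNA tumours (-1.07 ± 0.32 SE, limma adjusted p = 0.0530). Clspn, the adaptor that passes stalled-fork signals to CHK1, had -1.04 ± 0.33 (SE; limma adjusted p = 0.0672).

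Of 5 genes grouped as E2F1, chromatin assembly and maintenance methylation, 3 fell, all of them among the 4 that act on chromatin or methylation behind the fork. Chaf1a and Chaf1b encode subunits of the CAF-1 complex, which places new histones on copied DNA. Chaf1a was at 28.8, 39.1, 26.2, 30.5 and 27.7 TPM in control and 7.79, 6.05, 11.5, 8.19 and 21.5 TPM in cytokine mRNA tumours, without overlap, and had the lowest adjusted p of the 51 genes: -1.50 ± 0.31 (SE; limma adjusted p = 0.0168). Its call was kept in 9 of 10 fits with 1 library left out, the most of the 51, and lost without cytokine library 6 (adjusted p = 0.0502). Chaf1b was at 34.0, 49.0, 45.1, 50.6 and 44.9 TPM and 9.65, 9.37, 19.4, 10.7 and 40.4 TPM, a change of -1.49 ± 0.37 (SE; limma adjusted p = 0.0290), with only library 10 in the control range. Dnmt1, the methyltransferase that copies methylation marks, was at 216, 174, 167, 177 and 175 TPM in control and 75.8, 39.0, 73.8, 83.0 and 168 TPM in cytokine mRNA tumours. The change in Dnmt1 was -1.19 ± 0.32 (SE; limma adjusted p = 0.0375), kept, like that of Chaf1b, in 2 of 10 fits. Uhrf1, which recruits DNMT1 to new DNA, had a larger change and a wider error (-1.67 ± 0.58 SE, limma adjusted p = 0.0823), and 9.98 TPM in library 7. E2f1, the activator of many of these genes, was at 15.0 ± 2.35 and 10.1 ± 3.88 TPM (SD, n = 5 per group) and did not pass (-0.59 ± 0.27 SE, limma adjusted p = 0.170).

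Of 28 further replication proteins 5 fell and 0 rose, with a median change of -0.75: Esco2, which establishes sister chromatid cohesion, had -1.58 ± 0.43 (SE; limma adjusted p = 0.0405), the PCNA-associated factor Pclaf -1.58 ± 0.37 (SE; limma adjusted p = 0.0241), and the helicase Recql4 -0.93 ± 0.26 (SE; limma adjusted p = 0.0438); the others were Topbp1 and Atad5. Of 17 further genes of deoxynucleotide synthesis, salvage and breakdown 3 fell and 1 rose, Samhd1, with a median of -0.20. The 3 were Nme1, a nucleoside diphosphate kinase, at -2.33 ± 0.52 (SE; limma adjusted p = 0.0206), and the folate enzymes Mthfd1, at -1.70 ± 0.34 (SE; limma adjusted p = 0.0160), and Shmt1, at -1.69 ± 0.40 (SE; limma adjusted p = 0.0257). None of 19 genes of purine and pyrimidine synthesis passed (median -0.41; without library 10, 5 were lower and 1 higher), and the most abundant, Paics, was at 169 ± 25.0 and 133 ± 31.8 TPM (SD, n = 5 per group). Among 26 regulators of G1 and S phase 4 fell, with a median of -0.49: Ccne2, an S phase cyclin, at -1.82 ± 0.50 (SE; limma adjusted p = 0.0428), Ccna2, another, at -1.75 ± 0.49 (SE; limma adjusted p = 0.0432), the repressor E2f7, at -1.18 ± 0.28 (SE; limma adjusted p = 0.0250), and E2f8. Without library 10 the lower calls were 11, 5 and 9 in the replication, deoxynucleotide and G1 and S phase lists, against 12.8% of all genes. They were 0 in each without libraries 6 and 7 together, against 0.00800% of all genes. In the fit on all 10 libraries, 3.02% of all genes were called lower and 7.41% higher. The 0 of 19 in purine and pyrimidine synthesis is near these shares.

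Mitosis genes were lower in more of their number: 19 of 24 fell, with a median log2 change of -1.51, against 18 of 51 and -1.10 for the replication genes. Over all genes tested, 3.02% fell and 7.41% rose. The largest falls among the mitosis genes were in Ube2c, at -2.13, Cdc20, at -2.06, and Cdk1, at -2.04 (limma adjusted p of 0.0146, 0.0276 and 0.0211). Without library 10 the counts were 24 of 24 and 35 of 51, against 12.8% of all genes, and without libraries 6 and 7 together 0 of each. The difference between these lists was not tested. Of 16 reference genes, 0 fell and 1, B2m, rose, and their median change was -0.48, lower than that of all genes tested. Without library 10, 4 of the 16 were called lower, Ppia, Pgk1, Gusb and Tfrc, against 12.8% of all genes, and with quality weights 3, against 9.41%. The estimates of Ppia, -1.62 ± 0.55 SE, limma adjusted p = 0.0797, and of Pgk1, -1.53 ± 0.57 SE, limma adjusted p = 0.101, lay below the median of -1.10 over the replication genes. Those of Gapdh, -1.51 ± 0.71 SE, limma adjusted p = 0.174, and of Tfrc, -1.29 ± 0.54 SE, limma adjusted p = 0.135, also lay below it. None of these reference genes passed with all 10 libraries.

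**Figure D4:**
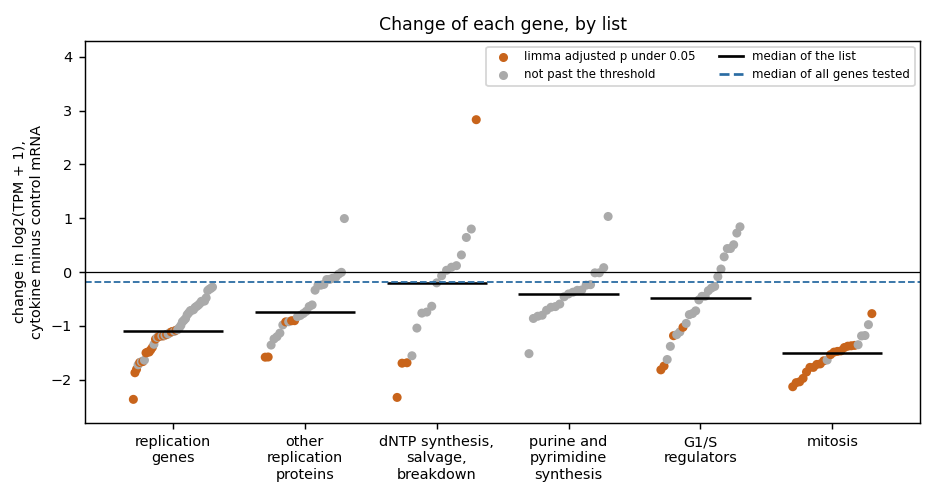
Change in log2(TPM + 1), cytokine mRNA minus control mRNA, of each tested gene in 6 lists, ordered by size within a list; orange points passed the limma threshold, black lines are list medians and the dashed line is the median of all genes tested. Medians run from -1.51 for mitosis and -1.10 for the replication genes to -0.20 for the deoxynucleotide list, in which Samhd1 stands apart at 2.83.

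The level of replication genes was also set beside cell type markers in each tumour. The mean log2(TPM + 1) over the 51 genes was 5.84, 5.82, 5.62, 5.79 and 5.43 in control libraries 1 to 5 and 4.31, 4.07, 4.63, 4.52 and 5.59 in cytokine libraries 6 to 10. Over the melanocyte markers it was 6.99, 9.69, 9.43, 9.61 and 9.49 in control tumours and 8.04, 1.83, 7.80, 9.21 and 9.61 in cytokine mRNA tumours. Library 9 lay below control libraries 2 to 5 in melanocyte markers, by far less than libraries 6 to 8 did, and its mean over replication genes was below all controls. Control library 1 had the highest replication gene mean and the lowest melanocyte mean of its group. Over the T cell markers the mean was 6.70, 7.47, 5.95, 4.78 and 2.71 in libraries 6 to 10, highest in library 7, where the replication genes were lowest, and lowest in library 10. The part of tumour and immune cell content in these differences was not tested.

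**Figure D5:**
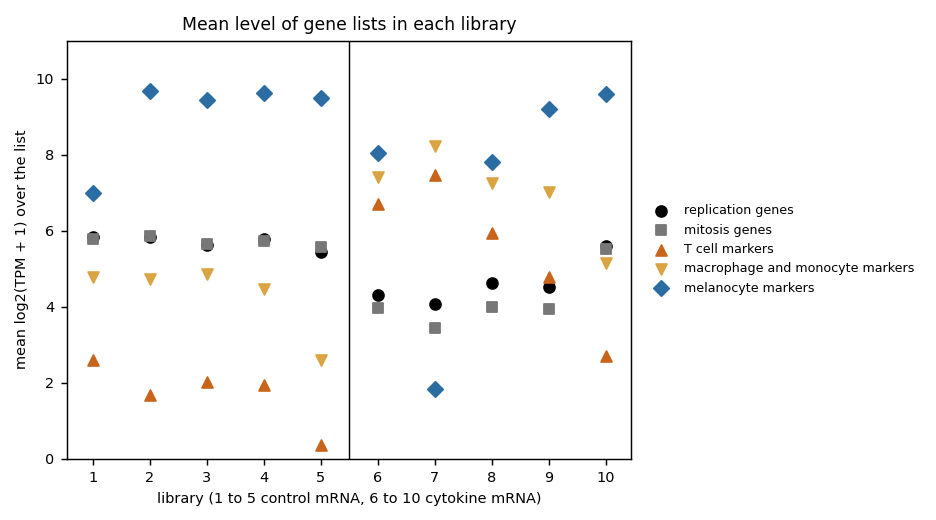
Mean log2(TPM + 1) over the 51 replication genes, 24 mitosis genes and 3 lists of cell type markers in each of 10 libraries, with control mRNA tumours left of the line and cytokine mRNA tumours right of it. Replication genes lie at 5.43 to 5.84 in control tumours, at 4.07 to 4.63 in libraries 6 to 9 and at 5.59 in library 10, where immune markers are lowest of the cytokine mRNA group.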

How the data were processed

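Per the labels' protocols, RNA was DNase-treated and sequenced from stranded NuGEN libraries of polyA RNA. The authors deposited TPM in 1 table, with 1 column for each tumour. The submitters' processing notes name STAR and GRCh38, which is a human build although samples and gene symbols are mouse, so no coordinates come from it. The counter and annotation are not stated in these sources. Since TPM are shares, a rise of abundant genes lowers all others.

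Columns were matched to samples by title. Libraries are numbered 1 to 10 with no number shared between groups, so nothing pairs them. P-values measure the spread among 5 tumours per group.

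The filter kept 12497 of 22329 genes (TPM 1 or more in 5 or more libraries). They were compared on log2(TPM + 1), which understates changes of low genes, with limma 3.58.1 in R 4.3.3 (trend, 2-sided, Benjamini-Hochberg over the 12497, threshold 0.05). Fits with libraries left out used the same genes. On simulated data (12497 genes, 100 changed at each fold), 19% of 2-fold and 64% of 4-fold changes were found, with 4 false calls. In the tumours far more genes were called, 378 lower and 926 higher, and some libraries stood apart from the rest of their group. Whether the simulated shares and false calls hold for such data was not tested. The members and lists were chosen with earlier results of these data known. By rule, every library's value is given for at most 3 called members of each role, those that changed most, or for the most abundant one if none was called; other lists name at most 3 called genes in each direction, or again the most abundant. Topbp1, Atad5, E2f8 and the genes under other observations were named after their values were seen. Alternatives were other pseudocounts, filters, scalings, weights, thresholds, exact tests and libraries left out. Promoter sequences are from RefSeq, build GRCm38.p6.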

Additional observations from a re-analysis of the deposited data

Results flagged for a closer look

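In 65 genes named here, each group of 5 tumours was searched for a single value far from the other 4 on the log2 scale (Dixon's test; chance gives about 1 in 20 groups), and 10 of 130 groups held one. Library 10 was the high value of the cytokine mRNA group in 5 of them: Mcm10 at 45.2 TPM, with 8.67 TPM the next highest, Lig1 at 71.2 TPM, Nme1 at 129 TPM, Recql4 at 2.85 TPM and Ube2c at 126 TPM. Library 7 was the low value for Orc1, at 0.557 TPM, with 6.64 TPM the next lowest. In control tumours, library 5 was low for Orc2, at 62.3 TPM, and for Samhd1, at 23.3 TPM. Control library 1 was high for Rfc2, at 116 TPM, and for Dnmt1, at 216 TPM.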

How the results depend on the processing

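All 51 replication genes kept a negative log2 change in every alternative run. Runs that altered only the filter, the variance trend, the threshold or the test kept the log2 change of the main fit. In those runs no sign could change. The count that fell, 18, was 13 to 23 with other pseudocounts, a filter at a TPM of 5, other scalings or no variance trend, against 2.26 to 4.91% of all genes. It was 6 with no filter on low values, where 17505 genes were tested, and 42 with library quality weights. It was 0 without libraries 6 and 7 together, at an adjusted p under 0.01 (37 at an unadjusted p under 0.05) and by an exact rank test, whose smallest p of 0.00794 does not pass adjustment (26 at an unadjusted p under 0.05). With 1 library left out it ranged from 0 (without library 6, 35 at an unadjusted p under 0.05) to 35 (without library 10). Of 1122 values of single genes under alternatives, 213 lost and 51 gained a call. Of these 1122 values 0 changed sign, though part of them come from runs where the sign was fixed. An exact permutation test of each gene, unadjusted, gave a p under 0.05 in 38 of 51 and its smallest possible value in 6, and 0 passed adjustment over all genes. Of all 12497 genes, 3813 had an unadjusted p under 0.05 in the limma fit on all 10 libraries, in either direction. For the fits with libraries left out and the exact permutation test, no such count over all genes is given.

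Over all genes the lower calls, 378, were 170 with no filter, 596 without the 50 most abundant genes, 613 with quantile normalization, 1176 with quality weights, 1 without libraries 6 and 7, 0 at an adjusted p under 0.01, 0 by the exact rank test (2914 in either direction at an unadjusted p under 0.05) and 46 to 1594 with 1 library left out. The higher calls, 926, were 1593, 19, 61 and 0 with quality weights, without libraries 6 and 7, at an adjusted p under 0.01 and by the exact rank test, and 321 to 1644 with 1 library left out. The median change of the 51 genes ran from -1.33 without library 10 to -0.80 without libraries 6 and 7. The causes were not tested beyond what each setting removes. Sequencing depth is unknown, so no limit for low genes can be given. No paired analysis was possible because the groups share no replicate number.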

Other observations

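Some genes of deoxynucleotide supply other than the S phase enzymes, singled out after their values were seen, did not pass the test. Rrm2b, the small subunit of ribonucleotide reductase used in resting and damaged cells, was at 10.4 ± 3.63 and 11.4 ± 3.31 TPM in the control and the cytokine mRNA group (SD, n = 5 per group; limma adjusted p = 0.806), while Rrm2 fell. Tk2, the mitochondrial thymidine kinase, was at 24.4 ± 12.1 and 36.8 ± 10.8 TPM (limma adjusted p = 0.189), while Tk1 fell. Dguok, the mitochondrial deoxyguanosine kinase, was at 47.0 ± 12.0 and 44.1 ± 8.69 TPM, and Dck, the deoxycytidine kinase, at 23.2 ± 6.05 and 29.9 ± 12.4 TPM. Not every such gene was level. Shmt2, of a mitochondrial enzyme, did not pass, at -1.56 ± 0.55 (SE; limma adjusted p = 0.0863), beside -1.69 for Shmt1, which fell. Without library 10, Shmt2 was called lower (limma adjusted p = 0.0158), as were 12.8% of all genes. Mthfd2, also of a mitochondrial enzyme, had -0.20 (limma adjusted p = 0.774), while Mthfd1 fell. The differences between these genes and Rrm2, Tk1, Shmt1 or Mthfd1 were not tested.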
